A study of Homo sapiens with 24 samples.

Results

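The regions described here are stretches of polyadenylated RNA that were listed as m6A peaks in wild-type U2OS cells after ultraviolet irradiation and in no other condition of the study. They were chosen by the presence and absence of peaks: the peaks of all 4 conditions were pooled, peaks sharing at least 1 base on the same transcript were merged, and regions with a peak in irradiated wild-type cells alone were kept. This gave 2256 of 20811 regions, or 10.8% of all regions, on 1819 of the 9674 transcripts with a peak in any condition. Every one of the 2256 regions consisted of a single peak of that list. Because peak presence selected them, their absence from the other 3 lists is a description and was given no test.

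The study measured m6A by immunoprecipitating methylated RNA from poly(A)-selected RNA of U2OS cells, a human osteosarcoma line. Cells were wild type or METTL3 knockout, and each genotype was left unirradiated or given a UVC dose of 50 J and collected after 2 min at 37 ºC. All cells of all groups, controls included, had been grown with 10 µM BrdU, a thymidine analogue. The labels did not say whether the knockout cells were 1 clone. There were 24 libraries, 12 immunoprecipitated and 12 input. The immunoprecipitated libraries numbered 3 for unirradiated wild type, 4 for irradiated wild type, 3 for unirradiated knockout and 2 for irradiated knockout.

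N6-methyladenosine is placed on nascent RNA polymerase II transcripts by a complex of the catalytic subunit METTL3, its partner METTL14 and adaptors such as WTAP, VIRMA, ZC3H13, RBM15 and RBM15B. The complex prefers a short motif with a central adenosine followed by cytosine, and in most tissues the mark is densest around stop codons and in long internal exons. YTH-domain proteins read the mark, and FTO and ALKBH5 can remove it. Adenosine next to the cap can carry a related modification, written by PCIF1, which antibodies to m6A also bind, so peaks at the very start of a transcript may hold either.

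The deposited data were 1 peak list per condition, called over that condition's replicates, with a start and an end along a RefSeq transcript and no score, height or coverage. No spread between replicates could be taken from them, so no difference between lists was tested and the depth behind a peak was unknown. Intervals below are 95% Wilson intervals, which cover counting error only, and regions on the same transcript are not independent. The lists held 13989 peaks in unirradiated wild type, 15465 in irradiated wild type, 13852 in unirradiated knockout and 9471 in irradiated knockout. The number of immunoprecipitated libraries differed along with them, being highest for irradiated wild type and lowest for irradiated knockout. Its part in which regions fell in 1 list alone was not tested. The METTL3 transcript itself carried 2, 2, 1 and 2 peaks in the same order. A peak does not measure transcript level, so this checks neither the knockout nor any label. Of 10 osteoblast-lineage markers 4 had a peak in some list (COL1A1, RUNX2, SPARC and TNFRSF11B), of 6 blood markers 0 did, and none of those 4 genes carried a region of irradiated wild type alone. Of 6 epithelial markers 2 had a peak: EPCAM had 0, 2, 0 and 0, both of them members, at bases 96–310 and 1251–1350, and KRT8 had 0, 0, 1 and 0. Of 6 neuronal markers NEFL (2, 1, 1 and 1) and RBFOX3 (1, 0, 0 and 0) had peaks, and of 3 endothelial markers VWF (2, 2, 0 and 0), with no member among them.

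The sequences below are shown because 213 of the 2256 regions began within the first 30 bases of their transcript, where the cap-adjacent base can be read. Genes with a single RefSeq transcript allow the start to be placed, and 30 genes with such a region qualified. The 6 whose start regions were widest are printed, each as the first 30 bases of the transcript, 5′ to 3′ on the coding strand, with the first transcribed base in capitals, from RefSeq on GRCh38.p14.
AREG, an epidermal growth factor receptor ligand, chr4:74445136-74445165, plus strand: Agacgttcgcacacctgggtgccagcgccc
STX16-NPEPL1, a readthrough transcript, chr20:58651253-58651282, plus strand: Acggaaacggtccggggctgagctgcagtc
PIGK, a subunit of the enzyme that attaches GPI anchors, chr1:77219401-77219430, minus strand: Aggtgcgggaagtctgaagccggtaaacat
CFAP58-DT, a divergent noncoding transcript, chr10:104353546-104353575, minus strand: Gggcagatggagacacccaggagaaagaag
DDI2, an aspartic protease of the proteasome pathway, chr1:15617458-15617487, plus strand: Agacggactcgcaggcgtgtggcggcggcc
CCDC69, a coiled-coil protein, chr5:151224063-151224092, minus strand: Agtttcagggtctcgccggcagccccagcc

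All of these transcripts had 0 peaks in the other 3 lists. However, STX16-NPEPL1 overlaps STX16 and NPEPL1, and DDI2 overlaps RSC1A1. Those genes were marked in another list, so reads could be split between the overlapping names. The region covered bases 13–220 of AREG, 5–175 of STX16-NPEPL1, 1–169 of PIGK, 1–165 of CFAP58-DT, 10–170 of DDI2 and 12–170 of CCDC69, and CCDC69 had a second peak in irradiated wild type. The first base was A in 17 of the 30 genes (56.7%, 39.2–72.6). For start regions found in every list it was A in 41 of 64 genes (64.1%, 51.8–74.7), and for all other start regions in 119 of 229 (52.0%, 45.5–58.4). Over all 11374 genes with a single transcript the share was 41.7% (4746 genes). The interval for the 30 genes spans all 3 of these shares. The letters GGAC, the core of the preferred m6A motif, were searched on the transcribed strand of the first 50 bases. They were present in 3 of the 30 genes (10.0%, 3.46–25.6) and in 15 of 64 genes with a start region in every list (23.4%). All other start regions gave 48 of 229 genes (21.0%), and all genes with a single transcript 2070 of 11374 (18.2%). The interval for the 30 genes includes these other shares, so a lower share was not detectable. A match is a description of letters and does not show a methylated site. The letters within regions further along the transcripts were not analysed here.

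Regions found in irradiated wild type alone made up 14.6% of that list's peaks (14.04–15.15). The same count for unirradiated wild type alone was 1776 regions, 12.7% of its list (12.2–13.3). Unirradiated knockout alone held 1806 regions, 13.04% (12.49–13.61), and irradiated knockout alone 743, 7.84% (7.32–8.40). Every condition therefore had a set of its own, and the set of irradiated wild type was the largest in number. A further 5340 regions had a peak in every list. The plot of regions by their pattern of lists sets these counts side by side.

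**Figure D1:**
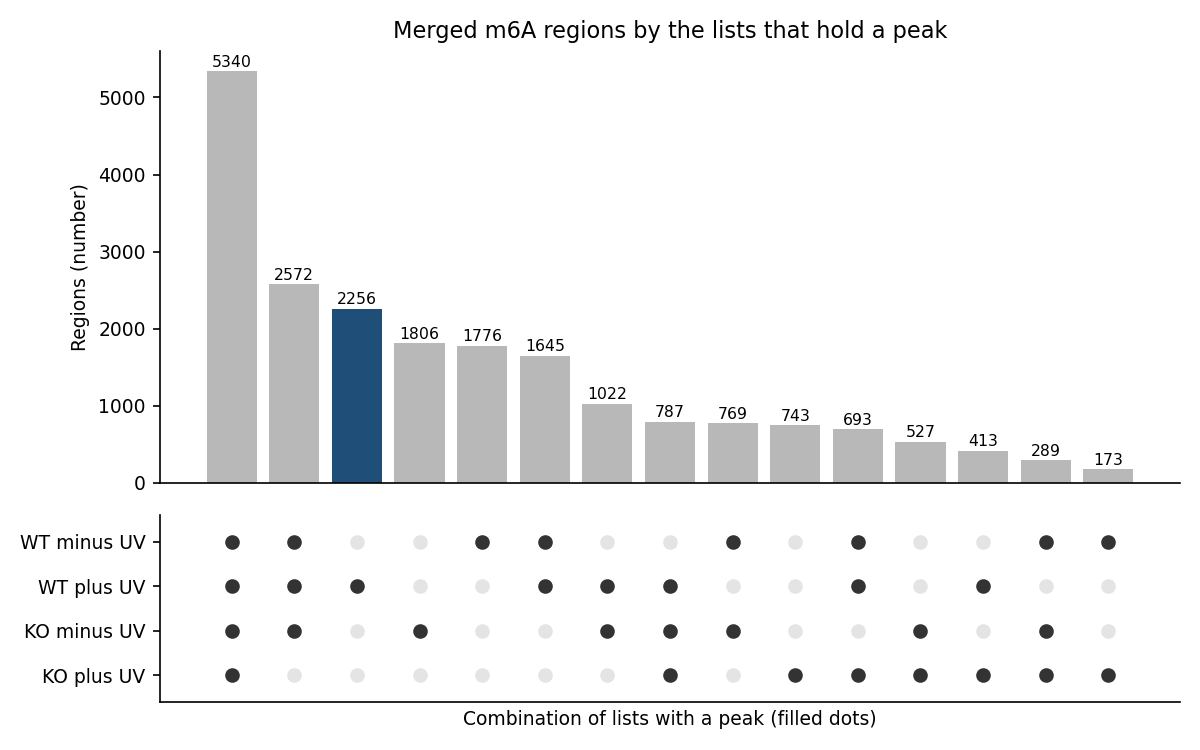
Number of merged regions (bars) for each combination of the 4 peak lists in which they had a peak (filled dots, WT for wild type and KO for METTL3 knockout), with the regions of irradiated wild type alone in blue. The 2256 regions of irradiated wild type alone are fewer than the 5340 found in every list and more than the 1776, 1806 and 743 found in each other list alone.

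Many of these regions lay on transcripts that were not marked at all elsewhere. Of the 2256 regions, 897 (39.8%, 37.8–41.8) were on 679 transcripts with no peak in the other 3 lists. The corresponding share was 32.3% for unirradiated wild type alone (573 regions on 433 transcripts, 30.1–34.5), 28.2% for unirradiated knockout alone (510 on 410, 26.2–30.4) and 24.1% for irradiated knockout alone (179 on 171, 21.2–27.3). The interval for irradiated wild type lay above those of the other lists, a difference in counts between single lists that has no replicate check. Of the 679 transcripts, 521 (76.7%) had a single peak, 158 had at least 2 and 40 had at least 3.

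The other 1359 regions were extra positions on transcripts already marked in another condition. The transcript carried peaks in all 3 other lists for 516 regions (22.9%), and in both unirradiated lists but not irradiated knockout for 296 (13.1%). It was marked in unirradiated wild type only for 212 regions (9.40%) and in unirradiated knockout only for 129 (5.72%). Smaller groups lay on transcripts also marked in unirradiated wild type and irradiated knockout (83), in both knockout lists (68) or in irradiated knockout only (55). In all, 1107 regions were on transcripts with at least 1 peak in unirradiated wild type. A region was the only irradiated wild-type peak of its transcript in 587 cases (26.0%, 24.3–27.9).

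Most transcripts carried a single such region. There were 1479 transcripts with 1 region, 268 with 2, 53 with 3, 13 with 4 and 6 with 5. The 340 transcripts with at least 2 held 777 regions, and neighbouring regions on them were separated by a median of 700 bases over 437 gaps. Transcripts with 3 or more peaks in 1 list and none elsewhere were uncommon in every list. In irradiated wild type 1872 transcripts reached 3 peaks, and 40 of them had none elsewhere (2.14%, 1.57–2.90). In unirradiated wild type this held for 31 of 1731 (1.79%, 1.26–2.53). In unirradiated knockout there were 16 of 1699 (0.942%, 0.580–1.52), and in irradiated knockout 0 of 949. At 5 or more peaks the counts were 5 of 333, 2 of 322, 1 of 366 and 0 of 100 in the same order, and the intervals overlap.

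The regions were narrow compared with peaks found in several lists. Their median width was 160 bases (quartiles 125–191, range 100–627). Irradiated wild-type peaks that met a peak in 1, 2 or 3 other lists had medians of 178, 191 and 204 bases, over 3125, 4263 and 5821 peaks. A wider peak has more bases in which to overlap another, so width is partly tied to the rule that chose the regions. The regions of each other list alone were as narrow or narrower, with medians of 157 bases for unirradiated wild type, 150 for unirradiated knockout and 139 for irradiated knockout. The narrowest width in the lists, 100 bases, accounted for 263 of the 2256 regions (11.7%) and for 1.70% of irradiated wild-type peaks shared with all 3 other lists. That width was more common in unirradiated wild type alone (14.1%), unirradiated knockout alone (12.9%) and irradiated knockout alone (21.9%). Peaks of at least 350 bases were 1.11% of the regions, against 8.73% of those shared with all 3 other lists. Both ends fell on a 10-base grid for 46.9% of the regions and 14.9% of the peaks shared with all 3 others, and for 50.2%, 52.9% and 61.8% of the regions of unirradiated wild type, unirradiated knockout and irradiated knockout alone.

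**Figure D2:**
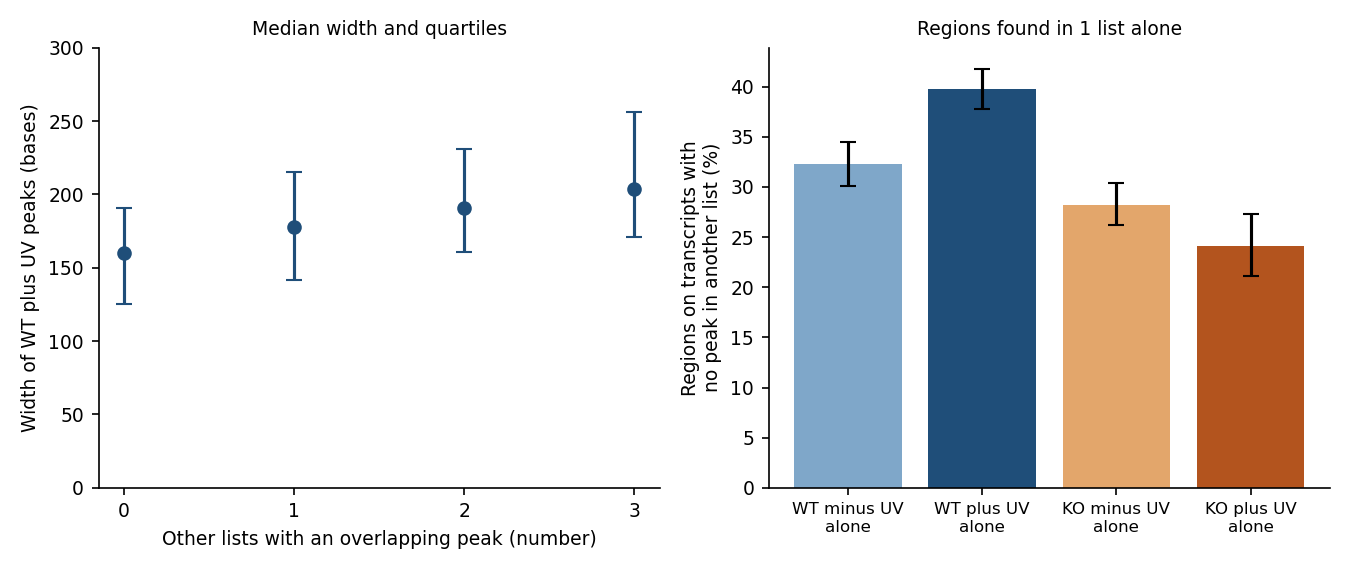
Left, median width in bases of irradiated wild-type peaks by the number of other lists they met, with quartiles as bars. Right, share in percent of each list's own regions on transcripts with no peak elsewhere, with 95% Wilson intervals. Median width goes from 160 bases at 0 other lists to 204 at 3, and the share on otherwise unmarked transcripts is 39.8% for irradiated wild type, above the 32.3%, 28.2% and 24.1% of the other lists.

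The 10 widest regions lay on FGD5 (627 bases), PHC1 (607), ZFAND4 (588), ZBTB24 (551), RERE (501), FMC1-LUC7L2 (470), IRGQ (463), PRPF38B (449), LRRFIP1 (447) and ADAMTS7 (441). PHC1, a subunit of the polycomb repressive complex that ubiquitinates histone H2A, carried peaks at bases 1024–1630 and 3071–3290 and none in the other lists. ZBTB24, a zinc-finger protein mutated in an immunodeficiency with centromere instability, likewise carried only its 2 irradiated wild-type peaks, at 643–1035 and 1798–2348. FGD5, an exchange factor for CDC42, had 2, 5, 1 and 0 peaks in unirradiated wild type, irradiated wild type, unirradiated knockout and irradiated knockout. Its widest region, 294–920, ended where another irradiated wild-type peak, 921–1121, began. Unirradiated wild type had a peak at 151–290, ending just before that region, and one at 1041–1140, which overlapped the peak at 921–1121.

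Where a transcript also had regions with peaks in other lists, the position of the chosen regions relative to them could be read. Of the 1359 regions on such transcripts, 558 (41.1%, 38.5–43.7) lay before all of those regions, 371 (27.3%) between them and 430 (31.6%, 29.2–34.2) after all of them. For unirradiated wild type alone 36.8% lay before (34.1–39.6), for irradiated knockout alone 37.9% (34.0–42.0), and for unirradiated knockout alone 28.8% (26.4–31.3). The intervals of the 3 former lists overlap, and that of unirradiated knockout lies below that of irradiated wild type. The median distance to the nearest such region was 440 bases (quartiles 140–1027). It was 428, 514.5 and 463.5 bases for the regions of unirradiated wild type, unirradiated knockout and irradiated knockout alone. Fewer than 100 bases separated 246 regions (18.1%) from the nearest one, and at least 1000 bases separated 349 (25.7%). The centre of a region lay at a median of 0.787 of the transcript (quartiles 0.410–0.949). The furthest peak end of any list was taken as the transcript's end, which is a lower bound of its length. Where a region was the only or last one, its own end set that value, which raised its relative position by construction. The medians for the other lists alone, computed with the same limit, were 0.786, 0.810 and 0.752.

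**Figure D3:**
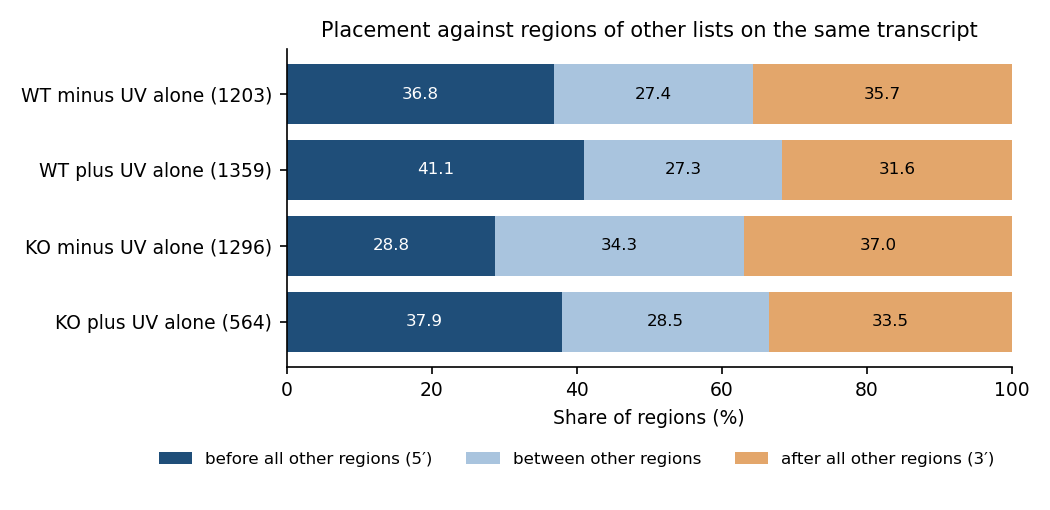
Share in percent of each list's own regions that lay before, between or after the transcript's regions with peaks in other lists, as stacked bars, with the number of regions in brackets (WT, wild type, KO, METTL3 knockout). For irradiated wild type 41.1% lay before the others, close to the 36.8% and 37.9% of unirradiated wild type and irradiated knockout and above the 28.8% of unirradiated knockout.

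The start of the transcript held 213 of the regions (9.44%, 8.30–10.7), and 112 of these began at base 1. Among all 1879 regions that began there, 11.3% were found in irradiated wild type alone (9.98–12.8), close to the 10.8% of all regions. The share of a list's own regions that began there was 7.04% for unirradiated wild type alone (125 regions), 5.32% for unirradiated knockout alone (96) and 9.69% for irradiated knockout alone (72). Among irradiated wild-type peaks it was 9.50%, 8.63% and 6.10% for those meeting 1, 2 and 3 other lists. The 213 start regions had a median width of 125 bases against 163 for the rest, and 80 of them (37.6%) lay on transcripts unmarked elsewhere. ELAVL1, which encodes the RNA-stabilising protein HuR, had one at bases 1–150, USP48 at 27–150 and KDM6A at 7–180.

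Noncoding transcripts contributed 109 of the regions (4.83%, 4.02–5.80), against 1.67% of irradiated wild-type peaks shared with all 3 other lists. The noncoding share was similar for unirradiated wild type alone (4.39%, 3.53–5.45) and unirradiated knockout alone (3.99%, 3.18–4.99), with overlapping intervals. For irradiated knockout alone it was 2.56% (1.64–3.96). Of all 310 regions on long noncoding RNAs, 58 were found in irradiated wild type alone (18.7%, 14.8–23.4), against 10.6% of the 20058 regions on protein-coding transcripts. The 58 include regions on readthrough transcripts of coding genes. These are IPO11-LRRC70, INMT-MINDY4, STX16-NPEPL1, EEF1E1-BLOC1S5 and ZFP91-CNTF, with 1 each, besides those named below. How many of the 310 lie on such transcripts was not counted. Unirradiated wild type alone held 9.68% of the long noncoding regions, unirradiated knockout alone 16.1% and irradiated knockout alone 1.61%. Of all regions these lists alone held 8.53%, 8.68% and 3.57%. Of 225 pseudogene regions, 42 were found in irradiated wild type alone (18.7%, 14.1–24.3) and a similar 17.8% in unirradiated wild type alone. The pseudogenes GTF2IP1 and GTF2IP4 both had a region at 3251–3410, so regions of similar copies may be counted more than once. PARTICL, a long noncoding RNA read from the MAT2A promoter region and known as a radiation-responsive transcript, had a single region totalling 413 bases. NRAV, a noncoding regulator of antiviral genes, had 2 regions, as did the antisense RNA SCAMP1-AS1 and the pseudogenes AHCTF1P1 and CUTALP. SPECC1L-ADORA2A had 4 and DNAAF4-CCPG1 had 2, but both are readthrough transcripts that share exons with coding neighbours. Their reads may be split between the names or counted under both. The coding gene CCPG1 also had 2 regions, at 1611–1955 and 2114–2280, and no peak in the other lists. Those of DNAAF4-CCPG1 lay at 2451–2833 and 2992–3150, so the same sequence may be counted as both coding and noncoding. Whether the counting used strand was not given in the sources used here, so an antisense RNA and its partner cannot be told apart.

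By gene, 2222 of the 2256 regions could be named and 34 could not. The named regions fell on 1792 of the 9560 genes with a peak in any list, or 18.7% of them. The gene groups below are read beside this share and beside the 10.8% of all regions. Since the rule fixed both, no group is called particular. For unirradiated wild type, unirradiated knockout and irradiated knockout alone, the shares of all regions were 8.53%, 8.68% and 3.57%. The 15 genes with the most regions were RERE, KDM6A, TNKS1BP1, BAZ1A, COL4A1 and COL18A1 with 5 each, and IRGQ, TBC1D4, RGS12, RGPD5, ZNF324, ADAMTSL4, KCNA1, RGPD4 and TNRC6A with 4 each. Peak counts below are given in the order unirradiated wild type, irradiated wild type, unirradiated knockout and irradiated knockout, and positions count bases along the transcript from 1.

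KDM6A (chrX:44873188-45112779, GRCh38) encodes a demethylase that removes the repressive methyl marks placed by polycomb on histone H3. It had 0, 5, 0 and 0 peaks, at bases 7–180, 271–500, 2178–2423, 2803–3040 and 4821–5012, spread along the transcript. BAZ1A (chr14:34752731-34875360), the large subunit of the ACF chromatin remodeller, also had 0, 5, 0 and 0 peaks, the first at 332–570 and the last at 4176–4364. SMARCA5 (chr4:143513702-143557486), the ATPase that pairs with BAZ1A in that remodeller, had 0, 2, 0 and 0 peaks, at 235–480 and 3038–3220. All peaks of these 3 genes in any list were therefore chosen regions.

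RERE (chr1:8352404-8817640), an atrophin-family transcriptional corepressor, had 0, 6, 0 and 1 peaks. Its 5 chosen regions lay at 752–990, 2824–3060, 4265–4450, 4461–4700 and 4771–5271, while the sixth peak, 3501–3876, overlapped the irradiated knockout peak at 3731–3917. The last 3 of these followed each other closely, from base 4265 to base 5271. TNKS1BP1 (chr11:57299642-57324952), a tankyrase-binding protein, had 0, 5, 0 and 0 peaks between bases 1257 and 4260, the widest of 413 bases. RGS12, a regulator of G-protein signalling, and KCNA1, a voltage-gated potassium channel, each had 0, 4, 0 and 0 peaks. RGPD4 and RGPD5 had 4 regions each, but they belong to a family of near-identical RANBP2-like copies, so their values are uncertain.

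Other genes had chosen regions next to peaks shared with the rest of the study. IRGQ (chr19:43584367-43596134), an immunity-related GTPase-like protein, had 2, 6, 2 and 1 peaks. Its peak at 1141–1472 was present in all 4 lists and that at 7711–8010 in 3, and between and before them lay the chosen regions 188–650, 1646–1910, 1961–2099 and 2961–3100. TNRC6A (chr16:24610205-24826218), the scaffold that links Argonaute to mRNA decay, had 3, 7, 2 and 1 peaks, with chosen regions at 241–480, 2499–2672, 2971–3110 and 5902–6050. TBC1D4 (chr13:75283503-75482169), a Rab regulator of glucose transporter traffic, had 1, 5, 1 and 0 peaks. Its chosen region 4056–4255 ended directly before the irradiated wild-type peak 4256–4369, which was shared with both unirradiated lists.

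**Figure D4:**
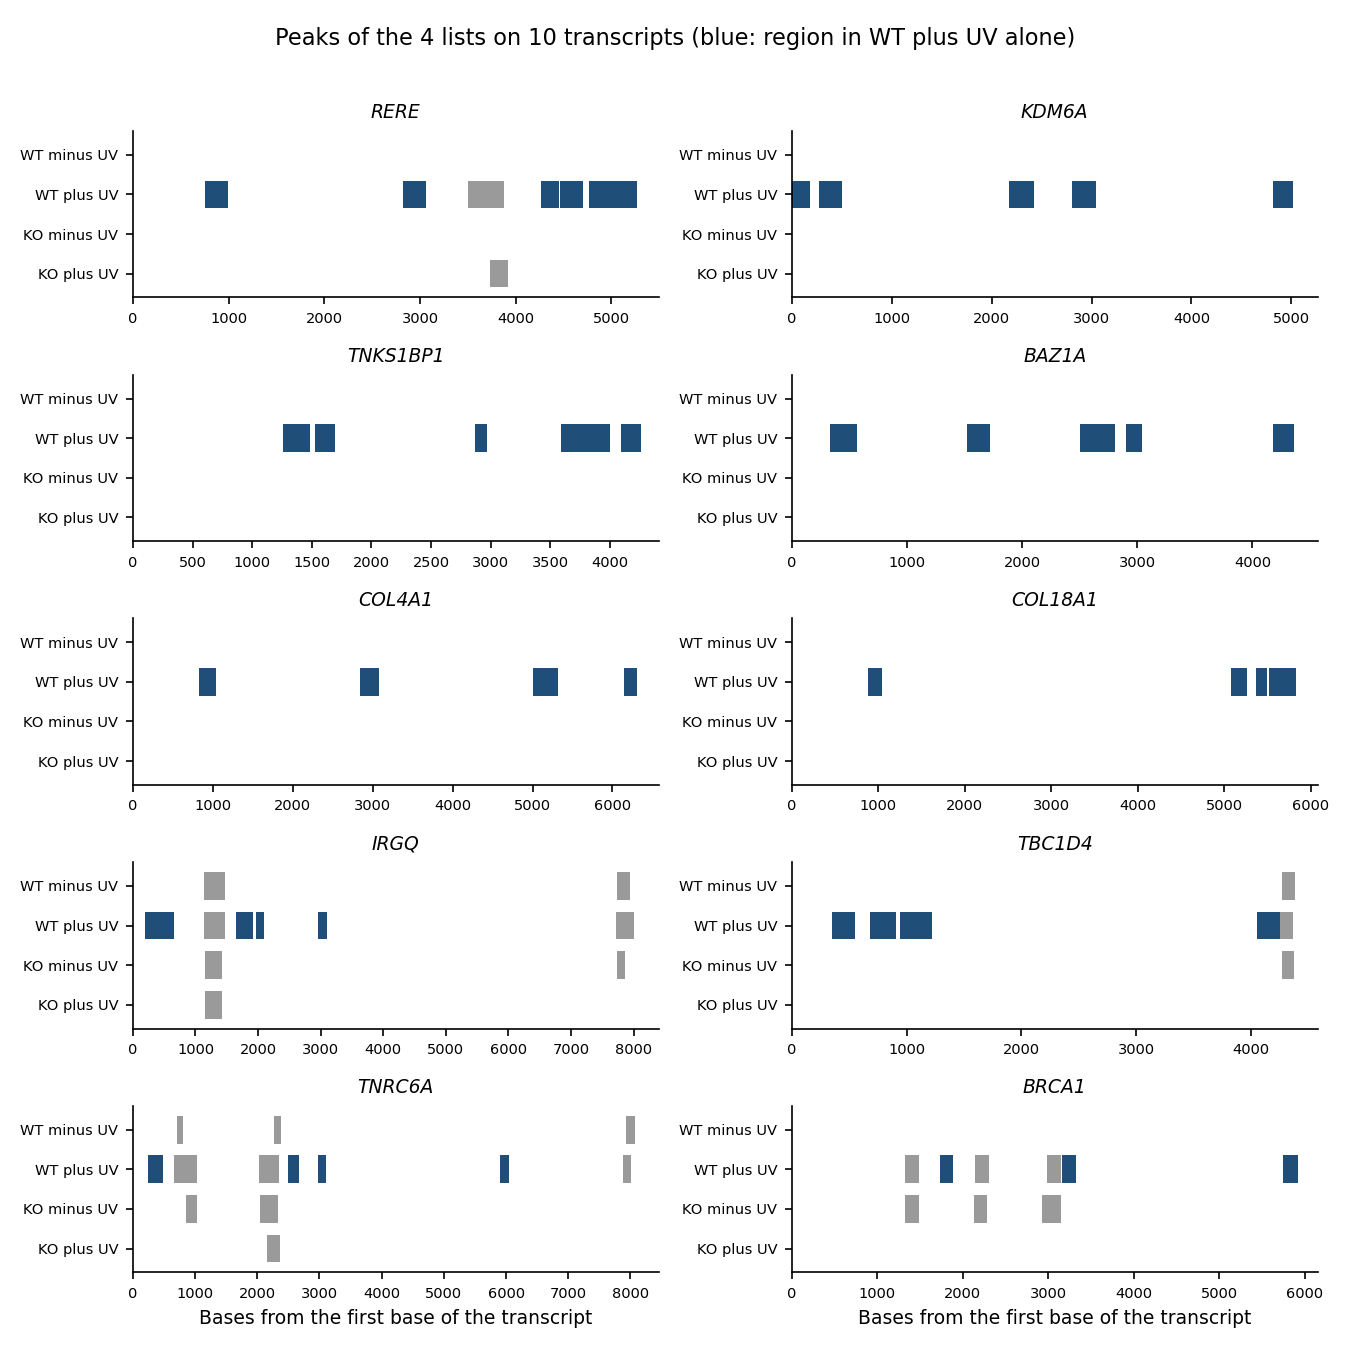
Peaks of the 4 lists along 10 transcripts, in bases from the transcript start, with regions of irradiated wild type alone in blue and all other peaks in grey. KDM6A shows 5 peaks in irradiated wild type and 0 in each other list, while IRGQ shows 4 chosen regions beside peaks shared with other lists.

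Among histone-modifying enzymes and chromatin remodellers, 27 of 67 marked genes (40.3%, 29.4–52.3) carried at least 1 chosen region. By regions the count was 40 of 306 (13.1%, 9.75–17.3), with 6.86%, 7.52% and 1.63% in unirradiated wild type, unirradiated knockout and irradiated knockout alone. These genes carry several regions each, which raises the chance that any gene holds at least 1, and the share by regions overlaps the 10.8% of all regions. Besides KDM6A, BAZ1A and SMARCA5, BAZ2B and KDM7A had 1 peak each in irradiated wild type and none elsewhere. KDM4B, a demethylase of heterochromatic histone marks, had 2, 3, 0 and 0 peaks with a chosen region at 1–300. EHMT1, a histone methyltransferase of repressed euchromatin, had 3, 5, 3 and 2 peaks with chosen regions at 13–130 and 141–374. In the polycomb and DNA methylation group the count was 6 of 31 genes and 7 of 89 regions (7.87%), including PHC1 and RNF2, the catalytic ubiquitin ligase of the same complex, at 568–785.

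The DNA damage response was covered by several groups. Checkpoint signalling had 9 of 26 genes (34.6%, 19.4–53.8) and 11 of 66 regions (16.7%, 9.57–27.4), against 7.58%, 12.1% and 3.03% of its regions in the other lists alone. BRCA1 and its 3 regions were counted both here and among the homologous recombination genes below. By regions, the intervals of both groups include the 10.8% of all regions. CDC25C, the phosphatase that triggers mitotic entry, had 0, 1, 0 and 0 peaks, at 1741–1915. CDC25A had a region at 2968–3130 beside peaks of all lists (1, 2, 1 and 2), and RNF168, a ubiquitin ligase at double-strand breaks, had one at 917–1100 (1, 2, 1 and 0).

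Homologous recombination and Fanconi anaemia genes had 7 of 30 genes (23.3%) and 10 of 71 regions (14.1%, 7.83–24.0), with 12.7% in unirradiated wild type alone. BRCA1 (chr17:43044295-43170327), the tumour suppressor of homologous recombination, had 0, 6, 3 and 0 peaks. Its chosen regions lay at 1731–1890, 3161–3320 and 5751–5922, and its other 3 irradiated wild-type peaks each overlapped an unirradiated knockout peak. FANCM, the DNA translocase that recruits the Fanconi complex, had 1 peak of 360 bases at 201–560 and none elsewhere. SLX4, a scaffold of structure-specific nucleases, had 2, 6, 3 and 1 peaks with chosen regions at 3301–3400 and 4861–5020, and EXO1 had 1, 3, 0 and 2 with 1 at 2755–2942.

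The groups that act most directly on ultraviolet lesions held few of the regions. Nucleotide excision repair, which removes ultraviolet photoproducts, had 1 of 24 genes and 1 of 45 regions (2.22%, 0.393–11.6), the single one being RPA3, the small subunit of replication protein A, at 1089–1240. Translesion synthesis and damage tolerance had 2 of 19 genes, POLQ and USP1, and 2 of 39 regions (5.13%, 1.42–16.9), against 23.1% of its regions in unirradiated wild type alone. The intervals of both groups include the 10.8% of all regions, so a lower share was not detectable at these counts. Immediate early genes had 2 of 17 genes and 3 of 29 regions (10.3%). ZFP36, which encodes an mRNA-decay factor, had 0, 2, 0 and 0 peaks, at 281–530 and 621–730, and the transcription factor KLF10 had 2, 3, 0 and 2.

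Cell cycle and mitosis genes had 2 of 34 genes, E2F7 and CCNE1, and 2 of 82 regions (2.44%, 0.671–8.46), against 9.76% in unirradiated wild type alone and 12.2% in unirradiated knockout alone. CCNE1, the cyclin of S-phase entry, had 0, 1, 0 and 0 peaks, at 11–110, and E2F7, a repressor of the same genes, had 2, 2, 1 and 1. DNA replication had 3 of 35 genes, CDT1, POLA1 and PRIM2, and 3 of 70 regions (4.29%, 1.47–11.9), an interval that includes the 10.8% of all regions. CDT1, the licensing factor, had 2, 4, 2 and 3 peaks with its chosen region at 2011–2220. Heat shock and unfolded protein response genes had 1 of 22, HSP90AB1, at 866–1051 (0, 2, 1 and 1 peaks). Transcription elongation and RNA polymerase II had 7 of 33 genes and 9 of 108 regions (8.33%). Its examples were AFF3, a member of the AFF family of elongation scaffolds, and NELFA, a pausing factor, with 2 and 1 peaks in irradiated wild type and none elsewhere.

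Of the m6A machinery, the methyltransferase complex had 2 of 11 marked genes and 2 of 21 regions (9.52%). RBM15B, an RNA-binding adaptor of the complex, had 0, 3, 0 and 3 peaks, and its chosen region lay at 1981–2244. ZC3H13, which anchors the complex in the nucleus, had 0, 1, 0 and 0, at 4131–4230, of the minimum width of 100 bases. METTL14 had 1, 0, 1 and 0, WTAP 1, 0, 1 and 1 and VIRMA 4, 4, 5 and 0 peaks, with no chosen region. Readers and demethylases had 1 of 14 genes, ELAVL1, with 1, 2, 2 and 2 peaks. FTO (2, 2, 2 and 1), ALKBH5 (1, 1, 2 and 0) and YTHDC1 (3, 4, 2 and 3) had none.

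Collagens and other matrix genes had 7 of 31 genes (22.6%, 11.4–39.8), an interval that includes the 18.7% of all genes. By regions the count was 19 of 94 (20.2%, 13.3–29.4). The other lists alone held 3.19%, 10.6% and 5.32% of these regions, against 8.53%, 8.68% and 3.57% of all regions. The regions were concentrated in 3 genes, COL4A1, COL18A1 and ADAMTSL4, which together account for the 5, 5 and 4 regions named above and had 0 peaks in every other list. COL4A1 (chr13:110148963-110307157), a basement membrane collagen, had peaks at 831–1040, 2840–3074, 5011–5213, 5214–5323 and 6151–6306. COL18A1 (chr21:45405165-45513720), the collagen from which endostatin is cut, had its peaks at 881–1040 and, close together, at 5081–5260, 5373–5490, 5521–5621 and 5622–5832. In both genes a pair of peaks abutted with no base between. COL8A1 also had 1 peak and none elsewhere, at 771–1014, and COL11A1 had 2, 4, 0 and 0.

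Among families taken by symbol, zinc-finger genes named ZNF had 67 of 269 genes (24.9%, 20.1–30.4) and 84 of 550 regions (15.3%, 12.5–18.5), with 13.6%, 10.7% and 2.55% in the other lists alone. Of the 67 genes, 32 had no peak elsewhere, among them ZNF324 with 4 and ZNF667 with 3. Symbols beginning with USP, most of them ubiquitin-specific proteases, had 15 of 42 genes (35.7%) and 23 of 132 regions (17.4%, 11.9–24.8), against 6.06%, 9.09% and 1.52%. The count includes USP6NL, a Rab GTPase-activating protein and not a protease, with 2 of the 23 regions. USP20 and USP48 had 3 peaks each in irradiated wild type and 0 elsewhere, and USP25 had 1, 4, 1 and 0. Protocadherins had 14 of 66 regions (21.2%), but 33.3% of their regions were in irradiated knockout alone, and clustered protocadherins share exons, so their peaks may be split between genes. Mitochondrial ribosomal proteins had 5 of 51 genes (9.80%) and 5 of 59 regions (8.47%), with 6.78%, 8.47% and 5.08% in the other lists alone. The 5 genes, MRPL3, MRPL39, MRPL42, MRPS23 and MRPS31, had 1 peak each in irradiated wild type and none elsewhere. Those of MRPL3, MRPL42 and MRPS23 had the minimum width of 100 bases. Cytoplasmic ribosomal proteins had 0 of 18 genes and 0 of 19 regions, which allows a share of up to 16.8%.

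Other families lay near the background. By regions the shares were 11.8% for ZBTB genes (10 of 85), 9.25% for SLC genes (37 of 400) and 11.0% for kinesins (9 of 82). They were 10.5% for TRIM (8 of 76), 11.1% for RNF (13 of 117) and 9.47% for F-box genes (9 of 95). TMEM genes had 11.2% (21 of 187) and ANKRD genes 8.06% (5 of 62). Most SLC symbols are solute carriers, but the count includes others, such as the long noncoding RNA SLC9A3-AS1. The plot of gene groups shows that most intervals cross the share of all regions.

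**Figure D5:**
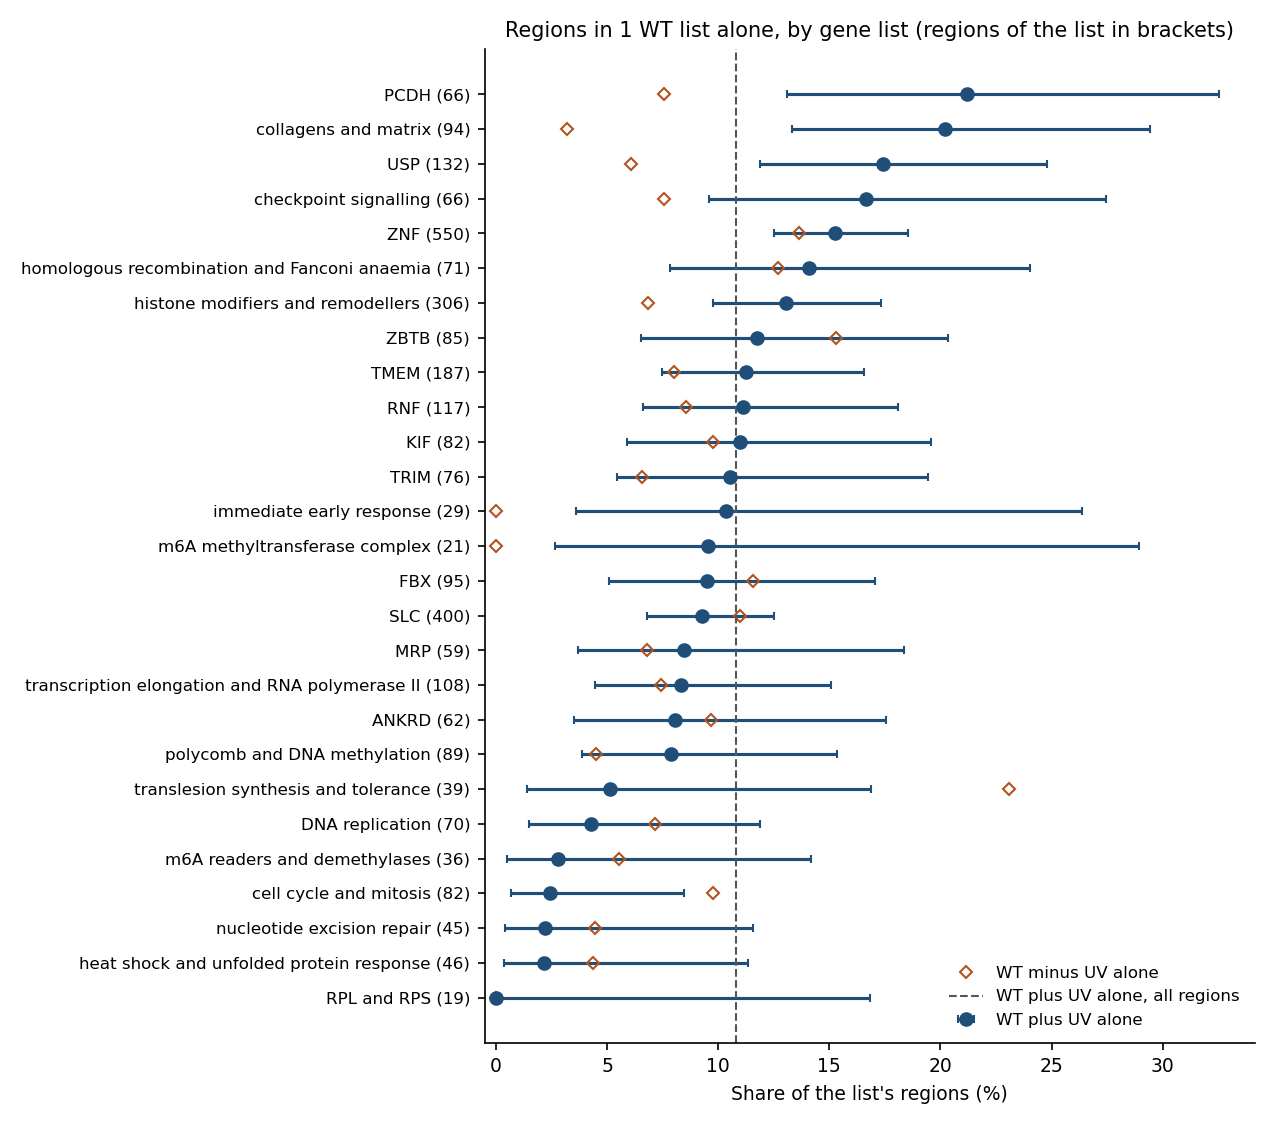
Share in percent of each gene group's regions found in irradiated wild type alone (filled points, 95% Wilson intervals) and in unirradiated wild type alone (open diamonds), with the dashed line at the 10.8% of all regions. Protocadherins (21.2%), collagens and matrix genes (20.2%), the USP family (17.4%) and the ZNF family (15.3%) have intervals above the line. Cell cycle and mitosis (2.44%) has its interval below it. These intervals treat regions on the same transcript as independent. Counted by genes, the intervals of protocadherins (14.9–40.2), collagens and matrix (11.4–39.8) and cell cycle (1.63–19.1) include the 18.7% of all genes. Those of the USP and ZNF families lie above it, but a gene with more regions has a greater chance of holding at least 1. USP had 132 regions on 42 genes and ZNF 550 on 269, against 20600 regions on all 9560 genes.

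The share of regions found in irradiated wild type alone was also set against properties of the transcript. It was 13.1% where a transcript had 1 region and 8.81% where it had 10 or more. With genes in 5 equal groups by length it ran 11.9%, 10.3%, 10.1%, 10.3% and 11.4% from the shortest to the longest. By chromosome it ranged from 6.32% on chromosome 22 (34 of 538) to 15.7% on chromosome 13 (52 of 331), where unirradiated wild type alone held the same 15.7%.

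The rule draws its line at 1 shared base, and positions near it show how sharp that line is. Just inside it, with 0 bases between, ADGRL1 had a chosen region at 1164–1429 directly after an unirradiated wild-type peak at 1001–1163. EDC3 had one at 2021–2190 directly before 2191–2310, and COPS2 one at 1509–1681 directly after an irradiated knockout peak at 1331–1508. Just outside it, with 1 shared base, were BAG5 (742–860 against 543–742), PARP8 (1395–1504 against 1110–1395) and FBXO11 (182–444 against 1–182), all against unirradiated wild type. In all, 47 chosen regions had fewer than 10 bases to a peak of another list, 132 fewer than 50 and 217 fewer than 100. On the other side, 46 of the 13209 irradiated wild-type peaks that met another list did so by at most 9 bases, and 165 by at most 49. Also, 93 of the 2256 regions (4.12%) directly abutted another irradiated wild-type peak, 60 of them one that was shared with another list. Of the 666 genes marked in irradiated wild type alone, 514 had a strand in the reference table used, and 19 of these overlapped, on the same strand, a gene marked in another list, so that reads of the 2 genes could be split.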

How the data were processed

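Messenger RNA was immunoprecipitated with an m6A antibody and sequenced as 50-base single reads. Per the submitters' processing notes, reads were aligned with TopHat2 2.0.14 to hg38. No peak caller, threshold, use of inputs or use of strand is given in the sources used here. What the authors deposited is not a count or signal but positions, a unit of the kind other: their lists give each peak's start and end in bases along a RefSeq transcript, 1 list per condition, with no score, so depth is unknown. Both ends were taken as included, counted from 1.

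Peaks sharing at least 1 base on a transcript were merged, with code tested on simulated data, in Python 3.11.15 with NumPy 2.4.6 and SciPy 1.17.1. Of 9674 transcripts, 9563 matched a gene in RefSeq GRCh38.p14 by accession and 111 did not. Shares have 95% Wilson intervals, and no test was possible with 1 list per condition. Alternatives were a larger overlap, joining nearby peaks, a width minimum, leaving out irradiated knockout and numbered transcript copies, and counting by gene. The genes named were the 15 with the most regions, those of the 10 widest regions, up to 5 per gene group by bases, the m6A machinery genes with such a region, and 3 regions on each side of the overlap rule. LOC and LINC names were skipped, and a few genes and 2 gene groups are not reported here. The noncoding examples, the genes printed with their start sequence and the m6A machinery genes without a region were added after their values were seen. The regions and gene groups were chosen with earlier results of these data known. Sequence within regions was not analysed here, since no transcript sequences were used.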

Additional observations from a re-analysis of the deposited data

How the results depend on the processing

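The number of regions stayed within 1.5 times of 2256 under all alternatives, from 1951 with peaks within 100 bases joined to 2693 with irradiated knockout left out of the rule. The share on transcripts with no peak elsewhere moved from 39.8% to 37.1% with at least 50 shared bases, 44.0% with peaks within 100 bases joined, 46.5% with peaks of 150 bases or wider only, and 42.5% without irradiated knockout in the rule. The share that was the only irradiated wild-type peak of its transcript moved from 26.0% to 30.5% with peaks joined and 33.1% with the width minimum. That minimum also moved the median width from 160 to 182 bases, by its construction, and the median relative position from 0.787 to 0.839. For the shares and the position the cause was not tested. The other 29 of 37 alternative values stayed within their counting interval or, for counts, within 1.5 times. Gene groups above the share of all genes numbered 15 of 29, and 11 when regions were counted. Leaving out genes that overlap another marked gene (2227 regions) and joining abutting peaks (2173) were chosen after seeing the data. No paired analysis was possible because each list pools its condition's replicates, and for the same reason no replicate could be left out. The alternative with reference transcript lengths was not run, since none were used here. Depth per peak is unknown, so a region absent from a list may have been below that list's detection.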

Other observations

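Among genes marked in 1 list alone and with a strand in the reference table used, 19 of 514 for irradiated wild type (3.70%) overlapped, on the same strand, a gene marked elsewhere. The counts were 6 of 312 for unirradiated wild type (1.92%), 10 of 310 for unirradiated knockout (3.23%) and 20 of 137 for irradiated knockout (14.6%). Genes without a strand there were not checked. The 19 overlapping genes of irradiated wild type included the readthrough transcripts FMC1-LUC7L2, SPECC1L-ADORA2A and STX16-NPEPL1. DDI2, whose start sequence is printed above, overlapped RSC1A1, and ZBTB24 overlapped MICAL1.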
